A study of Mus musculus with 96 samples.

Results

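The question was how lateral olivocochlear neurons (LOCs) with transcripts of Ddc differed from LOCs without them. LOCs are efferent neurons of the lateral superior olive (LSO), an auditory brainstem nucleus, and they project into the cochlea. Among the 30 libraries labelled LOC_Delayed, cell_78 and cell_85 were set aside. Of the remaining 28 LOCs, 9 had Ddc at 1 TPM (a share of the library scaled for transcript length, in whole numbers) or more and are called Ddc-positive. The other 19 had Ddc at 0 and are called Ddc-negative. The whole series holds 96 libraries, of which 86 came from patch-clamped neurons and 10 were negative controls, made by touching the slice with a pipette. The other 56 neurons were labelled as principal LSO neurons (pLSOs). According to the methods of the study, all slices came from C57BL/6J mice of both sexes at postnatal days 10 to 12, before and around hearing onset. Each library holds material aspirated from 1 neuron after whole-cell recording. The study describes harvest of the cytoplasm and also extraction of the nucleus. The labels do not name the animal a neuron came from. Each group therefore counts as 1 sample, and no test was made between the groups. Shares of neurons are given with exact Clopper-Pearson 95% intervals that cover counting error only. For a count of 0, the share said to be allowed is instead 3 divided by the number of neurons or controls.

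Ddc encodes aromatic L-amino acid decarboxylase, the enzyme that turns L-DOPA into dopamine and 5-hydroxytryptophan into serotonin. Th encodes tyrosine hydroxylase, the rate-limiting enzyme of catecholamine synthesis, which makes L-DOPA. A dopamine neuron is expected to load its product into vesicles with VMAT2 (Slc18a2) and may take it up again with the dopamine transporter (Slc6a3). LOCs are known as cholinergic neurons that also hold GABA markers and peptides such as CGRP and urocortin, and some of them are described as dopaminergic.

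The windows before the transcription start of the genes that name the groups are shown because Ddc has a pair of annotated starts and the deposited values are sums over a whole gene. They are the 250 bases upstream of the start in RefSeq (GRCm38.p6), read 5′ to 3′ on the minus strand. The Ddc windows end at starts 7736 bases apart, at chr11:11898145-11898394 and chr11:11890409-11890658, and the Th window is chr7:142899996-142900245. Capitals mark a full cAMP response element, TGACGTCA, which reads the same on both strands and was found in 1.55% of 32851 such windows.
Ddc, upstream start: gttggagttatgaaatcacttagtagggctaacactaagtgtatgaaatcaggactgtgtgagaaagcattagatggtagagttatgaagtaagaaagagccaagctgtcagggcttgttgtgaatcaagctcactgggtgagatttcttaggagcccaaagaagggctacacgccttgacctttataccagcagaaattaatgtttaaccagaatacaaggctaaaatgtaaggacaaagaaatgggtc
Ddc, downstream start: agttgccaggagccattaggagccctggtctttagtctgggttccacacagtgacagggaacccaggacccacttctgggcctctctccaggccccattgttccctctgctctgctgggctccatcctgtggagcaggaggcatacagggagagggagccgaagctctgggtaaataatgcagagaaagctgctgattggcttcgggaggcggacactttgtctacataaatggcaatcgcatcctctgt
Th: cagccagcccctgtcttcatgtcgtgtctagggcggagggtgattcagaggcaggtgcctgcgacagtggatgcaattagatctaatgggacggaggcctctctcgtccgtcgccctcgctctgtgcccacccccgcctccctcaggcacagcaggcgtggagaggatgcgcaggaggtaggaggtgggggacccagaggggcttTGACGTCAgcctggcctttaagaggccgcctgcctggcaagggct
The element stood 45 bases before the Th start, and these letters were in neither Ddc window. Which start a Ddc-positive LOC used cannot be read from gene-level values. The Ddc gene (ENSMUSG00000020182) lies on chromosome 11 from 11814101 to 11898144 on the minus strand of GRCm38. The antisense gene 1700042O10Rik overlaps it and was listed at 0 in all 28 LOCs.

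Ddc was the readout that formed the groups, so its values are a description only. The Ddc-positive LOCs held 1827 TPM (cell_66), 1693 TPM (cell_86), 1386 TPM (cell_80), 1280 TPM (cell_72), 470 TPM (cell_67), 226 TPM (cell_82), 36 TPM (cell_73), 7 TPM (cell_77) and 5 TPM (cell_79). The values thus spanned a wide range. The neurons just inside the threshold were cell_77 and cell_79, and every neuron outside it was at 0. The 9 Ddc-positive LOCs made up 32.1% of the 28 LOCs (interval 15.9 to 52.4%). Among the pLSOs, Ddc was detected in 2 of 44 Onset neurons, at 4 and 266 TPM, and in 1 of 12 Sustained neurons, at 16 TPM. It was listed at 0 in all 10 negative controls, which allows a share of up to 30% of such controls.

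The LOC label was checked against markers. Calca, which encodes CGRP, and Ucn, the urocortin gene, were both detected in 9 of 9 Ddc-positive and 14 of 19 Ddc-negative LOCs. Isl1, a transcription factor of motor and olivocochlear neurons, was detected in 8 of 9 and 14 of 19, and Gata3, a factor of efferent neurons, in the same numbers. Spp1 (osteopontin), a pLSO marker, was listed at 0 in all Ddc-positive LOCs and was found in 1 of 19 Ddc-negative LOCs against 91.1% of pLSOs. Thus, the Ddc-positive group held these LOC markers and lacked Spp1. Of the study's 20 top pLSO genes, a median of 3 were detected per neuron in each group. The range was 1 to 6 in the Ddc-positive and 1 to 7 in the Ddc-negative LOCs. Among them, Lpgat1 was in 5 of 9 Ddc-positive LOCs and in 4 of 10 Ddc-negative LOCs with cell numbers from 66 on. Of the Ddc-negative LOCs with lower numbers, cell_59, cell_60, cell_62 and cell_64 held it, at 26, 147, 1 and 1 TPM. The LOC markers Nxph1 and Chat were in 5 of 9 and 3 of 9 Ddc-positive LOCs, as described below. Calca was also found in 6 of 10 negative controls and 33.9% of pLSOs, whereas Isl1 was at 0 in both. In 2 Ddc-negative libraries Calca, Ucn and Isl1 were all at 0. Of these, cell_57 needed 300 pA to fire and held 903 TPM of Gata3, and cell_76 held 307 TPM of Slc17a6, which encodes the vesicular glutamate transporter VGLUT2 and was detected in 67.9% of pLSOs. Their label was kept, and the counts below are also given without them. The libraries set aside, cell_78 and cell_85, had Ddc at 0, Calca at 827 and 692 TPM and Ucn at 12 and 16 TPM.

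The number of genes at 1 TPM or more, Ddc not counted, ranged from 2040 to 4407 in the Ddc-positive LOCs (median 2515) and from 1175 to 3737 in the Ddc-negative LOCs (median 2193). The ranges overlapped, but 8 of 19 Ddc-negative libraries lay below the poorest Ddc-positive library. In addition, all Ddc-positive LOCs had cell numbers from 66 to 86, and 9 of the 19 Ddc-negative LOCs had lower numbers, starting at 57. What the numbers stand for is not given in the sources used here. The part of either difference in the results below was not tested, and the counts are given within the shared range of detected genes and within the shared range of cell numbers.

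Th did not follow Ddc neuron by neuron. It was detected in 3 of 9 Ddc-positive LOCs (33.3%, interval 7.49 to 70.1%), at 11015 TPM in cell_73, 4182 TPM in cell_80 and 1448 TPM in cell_86. It was also detected in 4 of 19 Ddc-negative LOCs (21.1%, interval 6.05 to 45.6%), at 40038 TPM in cell_61, 9040 TPM in cell_75, 97 TPM in cell_68 and 80 TPM in cell_69. The neuron richest in Ddc had Th at 0, and the neuron richest in Th had Ddc at 0. The shares were 3 of 8 and 4 of 11 within the shared range of detected genes. Over all LOCs, the mean log2(TPM + 1) of Th was higher by 1 or more in the Ddc-positive LOCs, as for 21.9% of all genes. This difference was 1.39 among cell numbers from 66 on and 0.73 within the shared range of detected genes. Th was found in 1.79% of pLSOs and in 0 of 10 negative controls.

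Of the 9 genes listed with Ddc for catecholamine synthesis, 6 were detected in any LOC, and Th, Pts and Qdpr were in at least 6 of the 28 LOCs, the minimum for a comparison. Gch1, which encodes the GTP cyclohydrolase that starts synthesis of the cofactor tetrahydrobiopterin, was detected in 3 of 9 Ddc-positive LOCs, at 7 TPM (cell_67), 17 TPM (cell_72) and 22 TPM (cell_82). All of these had Th at 0. In contrast, the Ddc-negative LOCs with Gch1 were cell_61 and cell_75, at 28 and 45 TPM, and they were the neurons of that group with the most Th. Pts, the next enzyme of the cofactor pathway, was detected in 3 of 9 and 3 of 19. Qdpr, which regenerates the cofactor, was detected in 1 of 9 Ddc-positive LOCs, at 148 TPM in cell_82, and in 7 of 19 Ddc-negative LOCs, at up to 2025 TPM. Dbh, which makes noradrenaline from dopamine, was found in cell_82 alone, at 138 TPM. Th, Gch1 or Pts was detected in 7 of 9 Ddc-positive and 6 of 19 Ddc-negative LOCs. This combination leaves out Qdpr, which went the other way. Th together with Gch1 was detected in 0 of 9 and 2 of 19. A share of 0 of 9 allows up to 33.3%.

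Transporters of catecholamines were nearly silent in both groups. Slc18a2 and Slc6a3 were listed at 0 in all 28 LOCs, including the 7 with Th, and the noradrenaline transporter Slc6a2 was found in 1 Ddc-negative LOC. Slc18a1, the endocrine type of vesicular monoamine transporter, was detected in 0 of 9 and 2 of 19. Slc18a2 was detected in 12.5% of the pLSOs, so the table does hold values for it. Maoa was detected in 1 of 9 and 2 of 19, and Maob in none. No receptor for dopamine or noradrenaline and no serotonin gene among those listed reached the 6 LOCs needed for a comparison. Tph2, the neuronal enzyme that starts serotonin synthesis, was detected in 0 of 9 and 2 of 19.

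**Figure D1:**
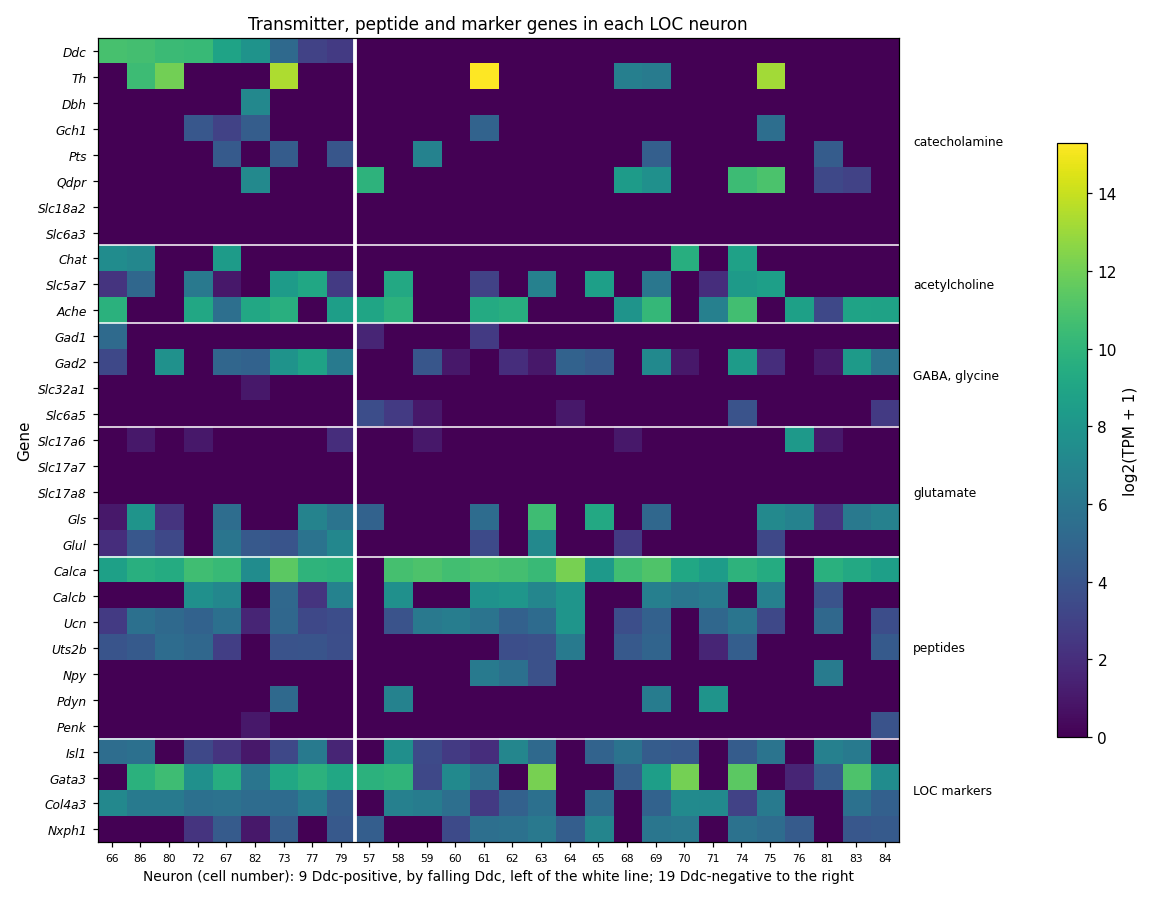
Log2(TPM + 1) of transmitter, peptide and marker genes (rows) in each of the 28 LOCs (columns, by cell number), with the 9 Ddc-positive LOCs left of the white line in falling order of Ddc and the 19 Ddc-negative LOCs to its right. Th fills 3 columns on the left and 4 on the right, Calca fills all but 2 columns (cell_57 and cell_76), and Slc18a2 and Slc6a3 are dark throughout.

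Genes of other transmitters were present on both sides. Chat, which encodes choline acetyltransferase, was detected in 3 of 9 Ddc-positive LOCs (33.3%, interval 7.49 to 70.1%), at 169, 136 and 333 TPM, and in 2 of 19 Ddc-negative LOCs (10.5%, interval 1.30 to 33.1%), at 770 and 421 TPM. Slc5a7, the choline transporter of cholinergic terminals, was detected in 7 of 9 and 8 of 19. Chat or Slc5a7 was therefore found in 7 of 9 and 9 of 19, and Chat occurred with Th in 1 Ddc-positive neuron, cell_86. The acetylcholine-degrading enzyme gene Ache was detected in 6 of 9 and 12 of 19.

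Gad2, a GABA-synthesizing enzyme, was detected in 7 of 9 Ddc-positive LOCs (77.8%) and 13 of 19 Ddc-negative LOCs (68.4%). Its median was 32 TPM (highest 439 TPM) against 1 TPM (highest 340 TPM), and its mean log2(TPM + 1) was 4.87 ± 3.24 (SD over neurons, n = 9) against 2.69 ± 2.99 (n = 19). The difference of 2.17 was smaller than the spread within either group. Gad1 was detected in 1 of 9 and 2 of 19. Slc6a5, the glycine transporter of glycinergic neurons, was listed at 0 in all Ddc-positive LOCs and was found in 6 of 19 Ddc-negative LOCs at 1 to 14 TPM. Among cell numbers from 66 on, Slc6a5 was in 0 of 9 and 2 of 10. Within the shared range of detected genes it was in 0 of 8 and 3 of 11. Of 3 genes compared in the GABA and glycine list, Gad2 was the only one whose means differed by 1 or more. For glutamate, VGLUT2 was detected in 3 of 9 and 4 of 19, VGLUT1 (Slc17a7) and VGLUT3 (Slc17a8) in none.

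Glul, which encodes glutamine synthetase, showed the clearest split among transmitter-related genes. It was detected in 8 of 9 Ddc-positive LOCs (88.9%, interval 51.8 to 99.7%), at 3 to 132 TPM apart from a 0 in cell_72, and in 4 of 19 Ddc-negative LOCs (21.1%, interval 6.05 to 45.6%), at 5, 9, 10 and 147 TPM. Its median was 17 TPM against 0. Glul was found in 35.7% of pLSOs and in 3 of 10 negative controls. Glutamine synthetase is best known as an astrocyte enzyme, and its source was not tested.

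Among neuropeptide genes, 17 of 26 were detected in any LOC and 6 could be compared. Calca was at 170 to 2766 TPM in the Ddc-positive LOCs (median 904) and at 0 to 4484 TPM in the Ddc-negative LOCs (median 947). The difference of its mean log2(TPM + 1) was 0.71 over all LOCs, 1.10 among cell numbers from 66 on and 1.83 within the shared range of detected genes. Calcb, which encodes the beta form of CGRP, was detected in 5 of 9 and 10 of 19. Ucn ranged from 2 to 49 TPM in the Ddc-positive LOCs and from 0 to 254 TPM in the Ddc-negative LOCs.

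Uts2b, which encodes urotensin-related peptide, was detected in 8 of 9 Ddc-positive LOCs (88.9%, interval 51.8 to 99.7%), at 6 to 41 TPM, and in 8 of 19 Ddc-negative LOCs (42.1%, interval 20.3 to 66.5%), at 2 to 78 TPM. Cell_82 was the exception among the Ddc-positive LOCs. The numbers were 8 of 8 and 5 of 11 within the shared range of detected genes. In contrast, Npy (neuropeptide Y) was listed at 0 in all Ddc-positive LOCs and was found in 4 of 19 Ddc-negative LOCs at 13 to 81 TPM. Among cell numbers from 66 on, Npy was in 0 of 9 and 1 of 10. Within the shared range of detected genes it was in 0 of 8 and 2 of 11. Nxph1, a neurexin-binding secreted protein and LOC marker, was detected in 5 of 9 at up to 22 TPM and in 14 of 19 at up to 124 TPM. Its mean log2(TPM + 1) was 1.83 against 3.86. Bdnf, a neurotrophin, was detected in 4 of 9 Ddc-positive LOCs, at 1 to 48 TPM, and in 1 of 19 Ddc-negative LOCs, at 17 TPM. Opioid genes were rare, with Penk in 1 of 9 and 1 of 19 and Pdyn in 1 of 9 and 3 of 19.

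Across the transcriptome, 4562 genes other than Ddc were detected in at least 6 of the 28 LOCs. The mean log2(TPM + 1) was higher by 1 or more in the Ddc-positive LOCs for 999 genes (21.9%) and in the Ddc-negative LOCs for 434 genes (9.51%). The share of neurons with the gene was higher by 40 percentage points or more in the Ddc-positive LOCs for 162 genes (3.55%) and in the Ddc-negative LOCs for 24 genes (0.526%). The median gene had a share 7.02 points higher and a mean 0.19 higher in the Ddc-positive LOCs, so the values leaned to that side as a whole. After subtraction of these medians, 814 and 597 genes differed by the mean, and 60 and 65 genes by the share. No gene was present in all Ddc-positive and absent from all Ddc-negative LOCs.

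The balance turned within the shared range of detected genes, 2040 to 3737, where 8 Ddc-positive LOCs stood against 11 Ddc-negative LOCs. This range did not match the groups. The medians within it were 2423 and 2932 detected genes, a wider gap than among all LOCs and in the opposite direction. The share was then higher by 40 points or more in the Ddc-positive LOCs for 73 of 3479 genes (2.1%) and in the Ddc-negative LOCs for 201 genes (5.78%). The mean was higher by 1 or more for 555 genes (16%) and 850 genes (24.4%). By share, 54 genes were on the Ddc-positive side and 18 genes on the Ddc-negative side in both comparisons. Among cell numbers from 66 on, 9 against 10 LOCs gave 129 and 44 genes by share. Without the 2 libraries that lacked Calca and Ucn, 182 and 24 genes differed by share, and 1039 and 376 by the mean.

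**Figure D2:**
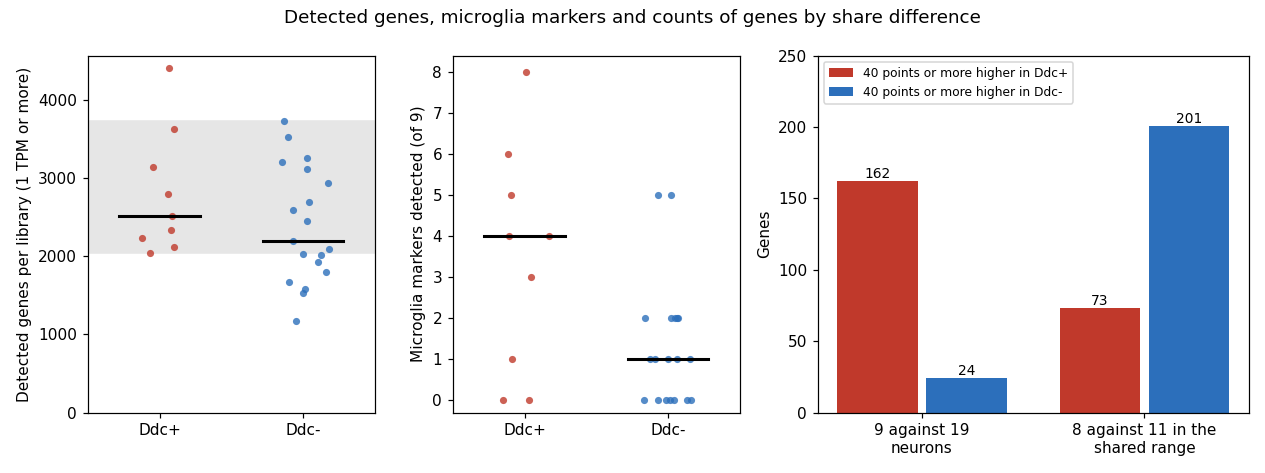
Left, genes detected per library in the Ddc-positive (Ddc+) and Ddc-negative (Ddc-) LOCs, with medians as bars and the range shared by both groups in grey; middle, how many of 9 microglia markers each library held. Right, the number of genes whose share of neurons differed by 40 points or more, which was 162 against 24 for all LOCs and 73 against 201 within the shared range of detected genes.

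The 12 genes with the largest share differences toward the Ddc-positive LOCs differed by 61.4 to 78.9 points. Narf, the nuclear prelamin A recognition factor, was detected in 9 of 9 Ddc-positive LOCs (interval 66.4 to 100%). Its gene lies on chromosome 11 from 121237253 to 121255856 on the plus strand (GRCm38). Its values were 39 TPM in cell_77, 42 TPM in cell_82 and 536 to 4909 TPM in the other 7. In the Ddc-negative LOCs, Narf was at 37 TPM in cell_83, 713 TPM in cell_57, 854 TPM in cell_70 and 10535 TPM in cell_75, and at 0 in the other 15 (21.1% detected, interval 6.05 to 45.6%). The ranges overlapped through these 4 neurons. Narf was found in 32.1% of pLSOs and in 0 of 10 negative controls.

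Scmh1, a Polycomb group protein gene on chromosome 4 (120405281 to 120530186, plus strand), was detected in 7 of 9 Ddc-positive LOCs (77.8%, interval 40 to 97.2%) and was listed at 0 in all 19 Ddc-negative LOCs, which allows a share of up to 15.8%. Its values were 14046 TPM in cell_79, 8219 TPM in cell_66, 6571 TPM in cell_72, 2116 TPM in cell_67, 381 TPM in cell_82, 83 TPM in cell_73 and 61 TPM in cell_80, with 0 in cell_77 and cell_86. Scmh1 was not confined to these neurons, as 25% of pLSOs and 1 of 10 negative controls held it. Anp32e, a chaperone of the histone variant H2A.Z, was detected in 6 of 9 at 2 to 182 TPM and in 0 of 19. It was also found in 17.9% of pLSOs and in 1 of 10 negative controls, at 1497 TPM, which is above every LOC. Brcc3, a deubiquitinating enzyme gene, was detected in 7 of 9 at 1 to 104 TPM and in 1 of 19 at 2 TPM.

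The remaining genes of these 12 were each found in 6 to 8 Ddc-positive LOCs. Copg1 (a subunit of the COPI vesicle coat), Glul and Srsf3 (a splicing factor) were detected in 8 of 9 against 4 of 19. Eif4a3, an RNA helicase of the exon junction complex, was detected in 8 of 9 against 5 of 19. Suco and Smim1, which encode membrane proteins, were detected in 7 of 9 against 3 of 19. Derl1, which acts in degradation of proteins from the endoplasmic reticulum, and Rab2b, a small GTPase, were detected in 6 of 9 against 1 of 19. Among LOCs in the shared range of detected genes, Narf was found in 8 of 8 against 2 of 11, Scmh1 in 6 of 8 against 0 of 11 and Copg1 in 7 of 8 against 2 of 11. Since the 12 genes were taken for their differences, these values describe them and test nothing.

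On the other side, Mpc2, a subunit of the mitochondrial pyruvate carrier, was detected in 3 of 9 Ddc-positive LOCs (33.3%, interval 7.49 to 70.1%), at 58, 93 and 129 TPM. It was detected in 16 of 19 Ddc-negative LOCs (84.2%, interval 60.4 to 96.6%), at 6 to 234 TPM with a median of 35 TPM over the group. Hprt, the purine salvage enzyme, was detected in 3 of 9 at 41, 125 and 184 TPM and in 15 of 19 at up to 389 TPM. Both genes thus overlapped in level where they were detected and differed in how many neurons held them.

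Several genes were listed at 0 in all 9 Ddc-positive LOCs. These were Scamp5, which encodes a protein of synaptic and secretory vesicles and was detected in 9 of 19 Ddc-negative LOCs at 1 to 60 TPM, and Mrpl54, a mitochondrial ribosomal protein gene, detected in 9 of 19 at 1 to 62 TPM. Setdb1, a histone H3 lysine methyltransferase gene, and Tmem25, a transmembrane protein gene, were each detected in 8 of 19, at up to 4517 and 15955 TPM. With 9 neurons, a share of up to 33.3% could have been missed. In all, 39 of the genes compared were at 0 in every Ddc-positive LOC and 2 (Scmh1 and Anp32e) in every Ddc-negative LOC, in groups of unequal size. A gene had to be in at least 6 LOCs to be compared. It therefore needed 6 of 19 neurons to enter the first count and 6 of 9 to enter the second. The filter makes these counts unequal, and they are not a result about the groups.

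The remaining genes of largest difference toward the Ddc-negative LOCs were Mrtfb (a coactivator of serum response factor), Mtch2 (an outer mitochondrial membrane protein) and Hnrnpr (an RNA-binding protein), each in 1 of 9 against 11 of 19. R3hdm2, Rheb (the GTPase that activates mTORC1) and Slc25a12 (the mitochondrial aspartate-glutamate carrier) were each detected in 2 of 9 against 13 of 19. Scamp5 was found in 0 of 8 against 8 of 11 LOCs in the shared range, and Mpc2 in 2 of 8 against 10 of 11.

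**Figure D3:**
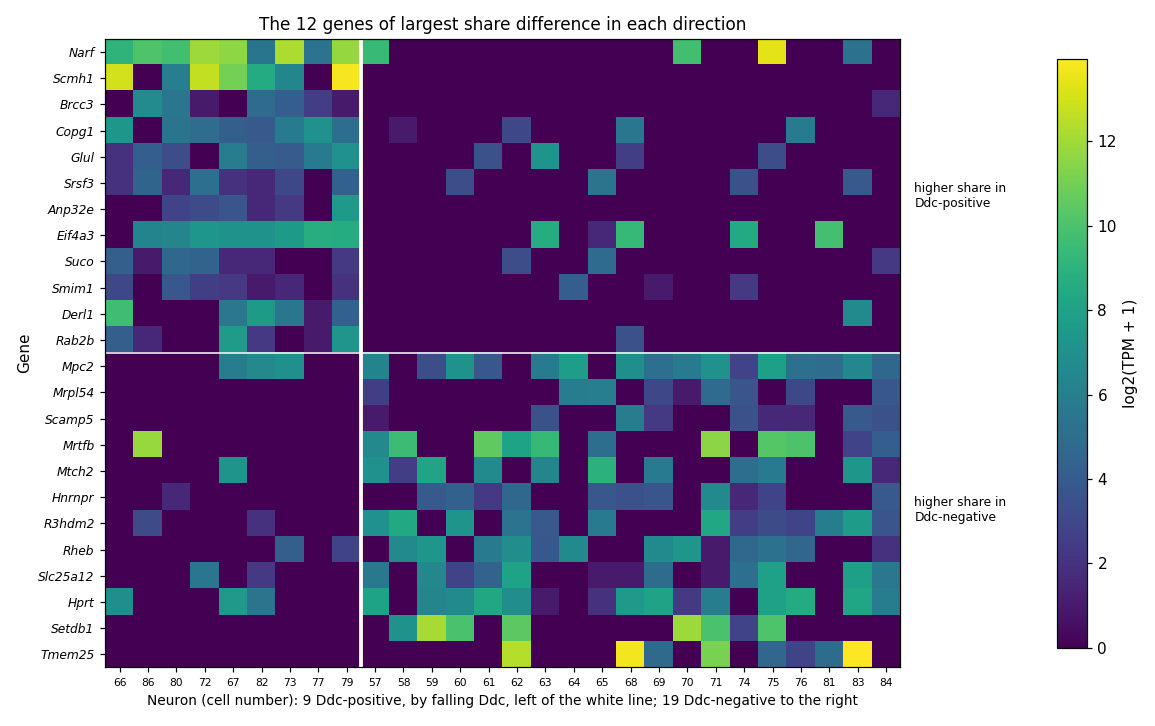
Log2(TPM + 1) of the 12 genes with the largest share difference in each direction (rows) in each LOC (columns, by cell number; Ddc-positive left of the white line). Narf fills all 9 columns on the left and 4 on the right, Scmh1 is dark in all 19 columns on the right, and Mrpl54, Scamp5, Setdb1 and Tmem25 are dark in all 9 on the left.

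Ranked by the difference of mean log2(TPM + 1), Scmh1 and Narf led again, followed by Gm2a, the activator of ganglioside GM2 breakdown (8.29 against 2.10, detected in 7 of 9 and 5 of 19), and Ncstn, a subunit of gamma-secretase (7.15 against 1.18, detected in 6 of 9 and 3 of 19). Mcts1, Supt5, Crip2 and Sri came next, with differences from 5.14 to 5.67. Toward the Ddc-negative LOCs, Dlat, a subunit of the pyruvate dehydrogenase complex (2.47 against 6.44, detected in 2 of 9 and 11 of 19), led, followed by Setdb1, Mrpl38, Xpo6, Tmem25, Vps50, Ubqln1 and Mrtfb, with differences from -3.92 to -3.32. The SDs over neurons were large, for example 2.67 and 4.19 for Narf, because most of these genes were either absent or high in a neuron.

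**Figure D4:**
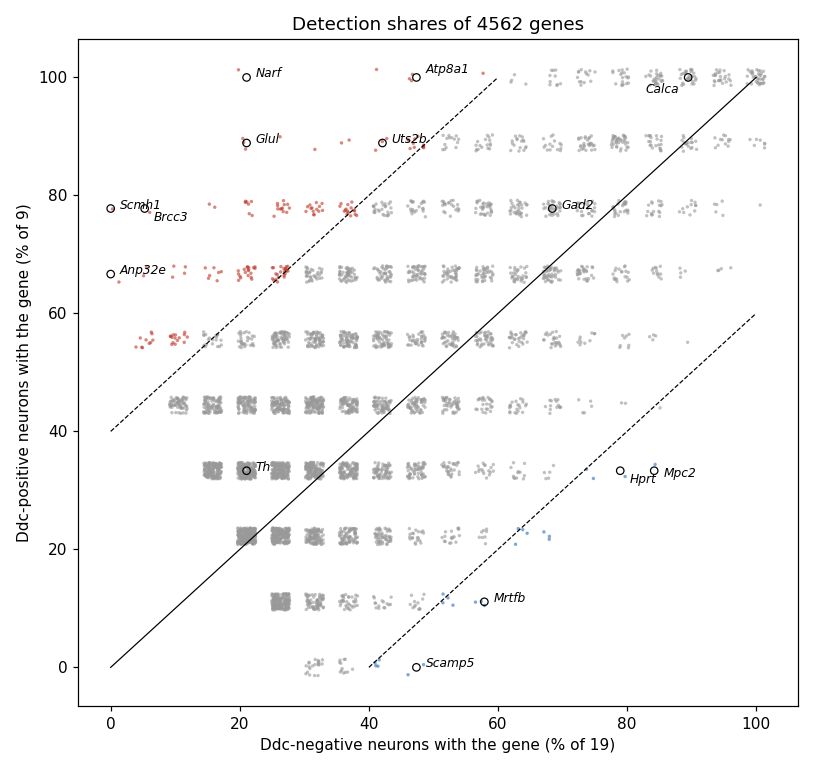
Share of the 19 Ddc-negative LOCs (horizontal axis, %) and of the 9 Ddc-positive LOCs (vertical axis, %) in which each of 4562 genes was detected, with a small random shift of the dots; circles mark named genes at their exact place. The solid line marks equal shares and the dashed lines a difference of 40 points, beyond which lie 162 genes (red) toward the Ddc-positive and 24 genes (blue) toward the Ddc-negative LOCs.

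The LOC markers chosen by the study on these samples, 18 of which were compared, were present on both sides. Of these, 7 had a mean higher by 1 or more in the Ddc-positive LOCs and 1 (Nxph1) in the Ddc-negative LOCs, against 21.9% and 9.51% of all genes. Their median difference was 0.78, against 0.19 for all genes. The study chose this list on these samples, so it is not independent evidence. The counts were again 7 and 1 within the shared range. Atp8a1, a phospholipid flippase gene, was the marker past 40 points. It was detected in 9 of 9 Ddc-positive LOCs, at 10 to 83 TPM, and in 9 of 19 Ddc-negative LOCs, at 1 to 189 TPM. It was found in 8 of 8 against 4 of 11 LOCs in the shared range, in 5.36% of pLSOs and in 3 of 10 negative controls, at up to 950 TPM, which is above every LOC. Col4a3, a type IV collagen gene, was detected in 9 of 9 at 22 to 139 TPM and in 14 of 19 at up to 158 TPM. Of the pLSO markers, 7 were compared, and Cplx1, which encodes the release regulator complexin, was the one with a mean differing by 1 or more (1.07 against 2.24).

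Among lineage genes, 8 of 20 were compared, and 4 had a mean higher by 1 or more in the Ddc-positive LOCs and 2 (Ret and Prph) in the Ddc-negative LOCs, against 21.9% and 9.51% of all genes. Within the shared range the counts were 3 and 1, since the difference of Nfib was 0.84 and that of Ret was -0.65. The 4 genes were Gata3 (2.19 higher) and the nuclear factor I genes Nfia (2.01), Nfib (2.32) and Nfix (2.82), which encode transcription factors of neuronal and glial maturation. Nfix was detected in 5 of 9 and 3 of 19. Ret, the receptor of GDNF-family ligands, was detected in 2 of 9 and 9 of 19, and Prph, the neurofilament protein peripherin, in 2 of 9 and 8 of 19. Nr4a2, a factor of dopamine neurons, was found in 0 of 9 and 1 of 19.

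Ion channel genes are given against 21.9% and 9.51% of all genes by mean, and 3.55% and 0.526% by share. Of 55 potassium channel genes, 40 were detected in any LOC, 7 could be compared and 1 passed a difference of 1 in the mean, which was Kcnj3 (GIRK1), detected in 5 of 9 at 5 to 405 TPM and in 4 of 19 at 1 to 276 TPM. Of 11 calcium channel genes compared, 2 passed 40 points. Cacna1g, the T-type channel Cav3.1, was detected in 6 of 9 at 1 to 327 TPM and in 4 of 19 at 2 to 1558 TPM. The subunit gene Cacnb1 was detected in 5 of 9 at 2 to 460 TPM and in 2 of 19 at 19 and 69 TPM. Within the shared range of detected genes, Cacna1g was in 6 of 8 against 2 of 11. Cacnb1 was in 4 of 8 against 2 of 11 there, a difference of 31.8 points. In contrast, Cacna1e, the R-type channel Cav2.3, had a higher mean in the Ddc-negative LOCs (7.90 against 6.09) and was detected in 6 of 9 and 15 of 19, with a difference of -1.82. This difference was -3.05 within the shared range of detected genes and 0.03 among cell numbers from 66 on. Cacna1d also had a higher mean in the Ddc-negative LOCs. Of 10 sodium channel and leak genes, 4 had a mean higher by 1 or more in the Ddc-positive LOCs (Scn3a, Fgf12, Nalcn and Scn2a) and none in the Ddc-negative LOCs, a share above the 21.9% of all genes. Within the shared range, 2 were higher, and the differences of Fgf12 and Nalcn turned to -0.11 and -0.02. None of the HCN genes was in enough LOCs for a comparison.

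Receptor genes leaned to the Ddc-positive side in number. Of 11 inhibitory receptor genes, 3 passed a difference of 1, among them Glra2 (1.88 higher) and Glra1 (1.74), and Gabbr1, a GABA-B receptor subunit, was detected in 7 of 9 against 5 of 19. Of 10 glutamate receptor genes, 2 (Grm3 and Grm7) passed in that direction and none in the other. These counts, 3 of 11 and 2 of 10, lie near the 21.9% of all genes. The counts were 2 against 2 for inhibitory and 1 against 2 for glutamate receptor genes within the shared range. Gabbr1 was in 6 of 8 against 4 of 11 there, a difference of 38.6 points.

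Among 25 synaptic release genes, 6 had means higher by 1 or more in the Ddc-positive LOCs and 3 in the Ddc-negative LOCs, near the 21.9% and 9.51% of all genes. Rab3b, a vesicle GTPase, was detected in 8 of 9 Ddc-positive LOCs, at 127 to 6212 TPM apart from a 0 in cell_86, and in 10 of 19 Ddc-negative LOCs, at 1719 to 8559 TPM. Sncg, which encodes gamma-synuclein, was detected in 8 of 9 and 12 of 19 (2.93 higher). Rims1, a scaffold of the active zone, was at 0 in all Ddc-positive LOCs and in 7 of 19 Ddc-negative LOCs at 1 to 112 TPM. Of 15 peptide processing genes compared, 2 (Cadps and Pam) were higher by 1 or more in the Ddc-positive LOCs. Both balances turned within the shared range, with 3 against 6 release genes and 2 against 6 processing genes.

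Immediate early genes were split. Jun was detected in 7 of 9 Ddc-positive LOCs, at 1 to 129 TPM, and in 4 of 19 Ddc-negative LOCs, at 5 to 42 TPM. Fosb was at 0 in all Ddc-positive LOCs and was detected in 7 of 19 Ddc-negative LOCs at 7 to 8459 TPM, whereas Fos itself was detected in 6 of 9 and 14 of 19. Of the 6 genes listed as neighbors of Ddc on chromosome 11, Grb10 and Cobl were detected in LOCs, Grb10 in 4 of 9 and 2 of 19 and Cobl in 4 of 9 and 3 of 19. Igfbp5, an IGF-binding protein gene, was detected in 4 of 9 at 1 to 28 TPM and in 13 of 19 at 1 to 681 TPM. Energy metabolism genes, 27 in all, were higher by 1 or more in 6 and lower in 4, against 21.9% and 9.51% of all genes, with a median difference of 0.01. The 14 neurofilament and cytoskeleton genes were higher in 3 and lower in 4. Within the shared range, where 16% of all genes were higher and 24.4% lower, 1 energy gene was higher and 11 were lower, and 0 cytoskeleton genes were higher and 7 were lower.

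The remaining gene lists gave small counts. Of 9 calcium-binding genes compared, 3 (Calb2, Calm3 and Ncald) had means higher by 1 or more in the Ddc-positive LOCs, and of 7 growth factor genes, 1 (Igf1) was higher and 2 (Igfbp5 and Ret) were lower. Of 7 stress genes, 1 (Hspa5, an endoplasmic reticulum chaperone) was higher. Odc1, which starts polyamine synthesis, was higher by 1.45 among 2 decarboxylase genes compared, the other being Gad2. Neither of 2 acetylcholine receptor genes compared differed by 1 or more. Among 4 cholinergic genes, Slc5a7 was higher by 1.09 and Chkb, a choline kinase gene, differed by -1.09. No gene of the list of aminergic transcription factors could be compared. These counts stand against 21.9% and 9.51% of all genes. Within the shared range of detected genes, the difference was below 1 for Calb2 (0.86), Igf1 (0.65), Hspa5 (0.69), Slc5a7 (0.57), Odc1 (0.09), Calm3 (-0.29) and Ret (-0.65 in place of -1.22).

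Markers of other cell types differed between the groups as well, and their part in the results was not tested. Of 9 microglia markers, a median of 4 were detected in a Ddc-positive LOC (range 0 to 8, summed level 0 to 946 TPM, median 83) and a median of 1 in a Ddc-negative LOC (range 0 to 5, summed level 0 to 527 TPM, median 4). Of 7 microglia genes compared, 5 had means higher by 1 or more in the Ddc-positive LOCs, against 21.9% of all genes. Within the shared range of detected genes, 3 of 4 were higher, against 16% of all genes. C1qa and C1qc, subunits of complement C1q, passed 40 points, with 6 of 9 against 2 of 19 and 5 of 9 against 2 of 19. Of all genes, 3.55% passed in this direction. The microglia marker Tmem119 was at 0 throughout, and cell_79, which held 8 of the 9 markers, was the neuron with the lowest Ddc. Cell_72 and cell_77 held none of them.

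Astrocyte genes lay on the other side. Of 8 compared, Apoe, Slc1a2 and Aldoc were lower by 1 or more in the Ddc-positive LOCs and none was higher. Of all genes, 9.51% were lower and 21.9% higher. Within the shared range of detected genes, 3 of 6 were lower and 0 higher, against 24.4% and 16% of all genes. Apoe, a lipid carrier of glia, was detected in 6 of 9 (median 142 TPM) and 18 of 19 (median 2193 TPM). The summed level of 11 astrocyte markers ranged from 6 to 22865 TPM (median 2249) and from 1192 to 55295 TPM (median 4277), and Aldh1l1, Gja1 and Gjb6 were at 0 in both groups. Oligodendrocyte markers summed to 35 to 26712 TPM (median 746) and to 1 to 8462 TPM (median 1209). In the negative controls they reached 389 to 42992 TPM. Mog was found in 3 of 9 and 0 of 19. Precursor, vascular and mural markers were rare, with the endothelial genes Cldn5 and Flt1 and the mural genes Pdgfrb, Rgs5, Acta2 and Vtn at 0 in both groups. Hemoglobin and other blood genes showed no difference of 1 or more in any of 4 compared.

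The electrophysiological labels overlapped between the groups in all 16 features. The resting potential was -73.3 to -53.5 mV in the Ddc-positive LOCs (median -62.1 mV, n = 7) and -69.7 to -51.5 mV in the Ddc-negative LOCs (median -56.7 mV, n = 12), and it was not given for the other 9 neurons. Those 9 neurons all had a rheobase, defined below, of 0 pA, so the values cover a selected part of each group. The difference of medians, -5.45 mV, was smaller than the SD of 6.69 mV over all neurons with a resting potential. The input resistance had medians of 562 MΩ (58.8 to 872 MΩ, n = 9) and 473 MΩ (196 to 904 MΩ, n = 18). The membrane time constant was 9.3 to 21.0 ms (median 16.9 ms) in the Ddc-positive LOCs, and 10 of 19 Ddc-negative LOCs (6.8 to 35.7 ms, median 21.3 ms) had longer ones. The capacitance had medians of 0.035 nF (0.021 to 0.158 nF) and 0.0445 nF (0.012 to 0.159 nF, n = 18).

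The rheobase is the smallest injected current at which an action potential (AP) occurred. It was 50 pA in 5 of 9 Ddc-positive LOCs and 0 in the other 4. In the Ddc-negative LOCs it was above 0 in 5 of 19, at 50 pA in 4 of them and at 300 pA in cell_57. Hence the medians were 50 and 0 pA. The AP latency at rheobase was 3.9 to 53.0 ms (median 15.0 ms) and 3.7 to 90.7 ms (median 21.8 ms), and 4 Ddc-negative LOCs exceeded the longest Ddc-positive latency. The AP amplitude had medians of 98.7 and 99.7 mV. Of the Ddc-positive LOCs, 4 lay above the Ddc-negative range of 70.2 to 113.0 mV, with a highest value of 127.5 mV, and 1, cell_79, lay below it at 48.4 mV. The AP half-width had medians of 1.05 and 1.19 ms, the AP threshold -28.3 and -26.9 mV and the sag amplitude 1.1 and 1.0 mV.

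Spontaneous synaptic currents overlapped between the groups. Excitatory currents (sEPSCs) had a median amplitude of 40.5 pA (27.3 to 87.9 pA) and 44.8 pA (20.0 to 92.5 pA), a rise time of 0.46 and 0.40 ms and a decay time constant of 1.94 and 1.83 ms. Inhibitory currents (sIPSCs), measured in 8 of 9 Ddc-positive LOCs, had an amplitude of 12.6 to 20.3 pA (median 18.3 pA) against 12.8 to 29.1 pA (median 19.6 pA), and 9 of 19 Ddc-negative LOCs exceeded all Ddc-positive values. Their rise time was 0.50 to 1.34 ms (median 0.70 ms) against 0.24 to 2.03 ms (median 0.56 ms), and 8 of 19 Ddc-negative LOCs were faster than all Ddc-positive LOCs. Their decay had medians of 2.26 and 2.58 ms. In every feature the difference of medians was smaller than the SD over the neurons. It amounted to 0.85 SD for the rheobase and 0.81 SD for the resting potential, and to 0.53 SD or less for the other features. For the rheobase, the SD of 58.5 pA included the 300 pA of cell_57, the only value above 50 pA. The difference of 50 pA was larger than the SD within the Ddc-positive LOCs (26.4 pA). It was smaller than the SD within the Ddc-negative LOCs (69.5 pA), which held cell_57.

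**Figure D5:**
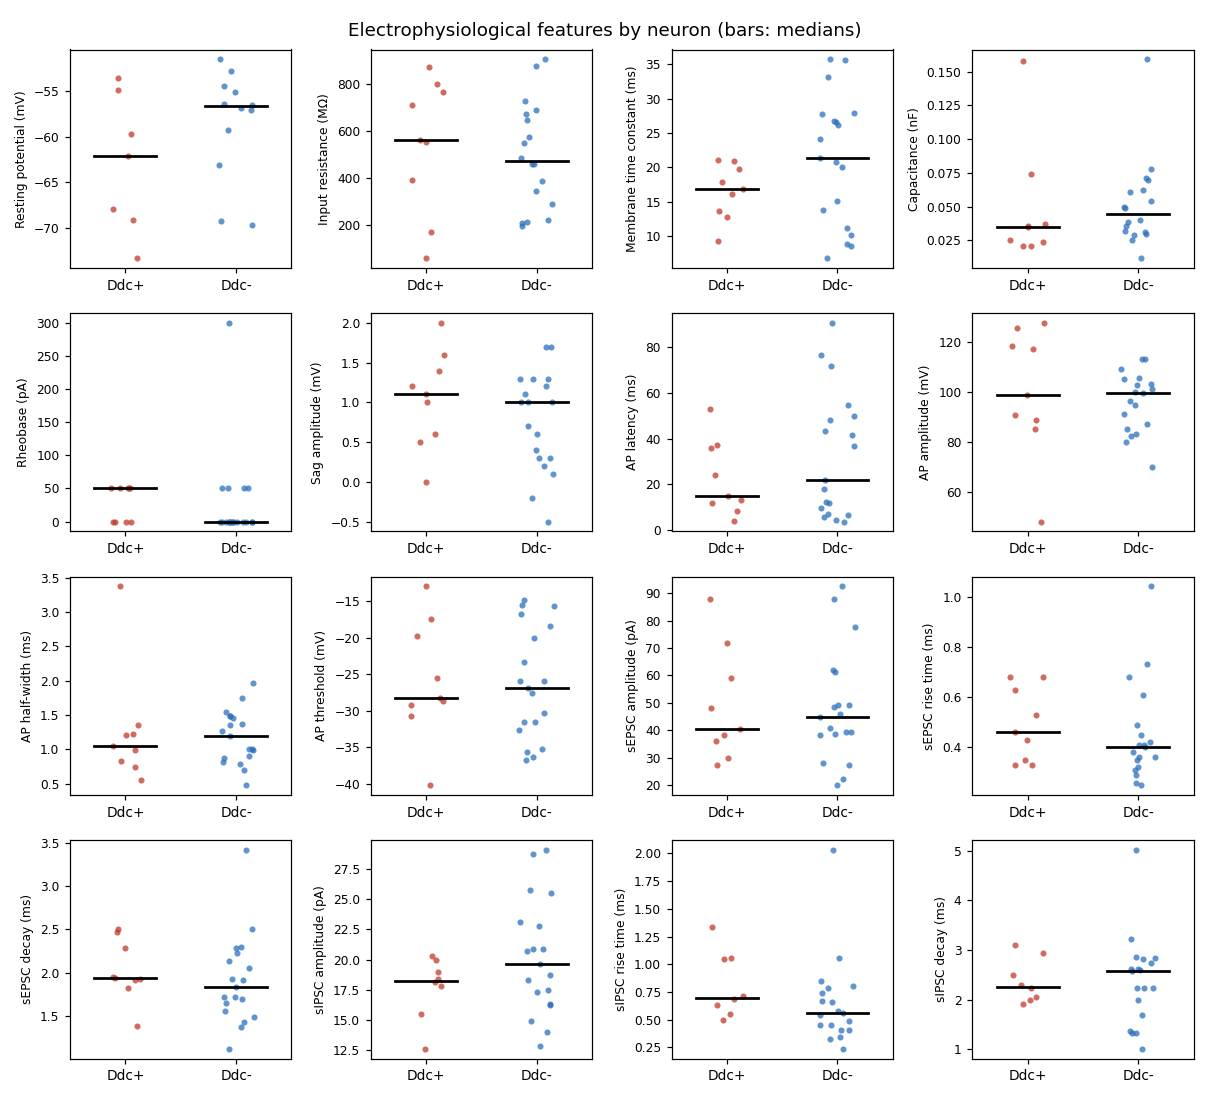
The 16 electrophysiological features (panels, vertical axes in the units given) of the Ddc-positive (Ddc+) and Ddc-negative (Ddc-) LOCs, 1 dot per neuron with medians as bars. The dots of both groups overlap in every panel, and the longest membrane time constants (above 21.0 ms) and largest sIPSCs (above 20.3 pA) belong to Ddc-negative LOCs.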

How the data were processed

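Material aspirated from patch-clamped neurons of the mouse LSO was sequenced with a modified Smart-seq2 protocol, and the labels gave 16 electrophysiological features per neuron. According to the submitters' processing notes, the authors used FastQC, Trim Galore 0.4.2, STAR, Picard 1.115, featureCounts and mm10. The deposited values are TPM that the authors rounded to whole numbers, and they were handled as a score and not as counts. They sum to nearly the same total in every library and keep no depth, so the number of detected genes stood in for it, and no interval for depth was computed. The first 12.5% of the rows held a median of 94.1% of the summed TPM, so levels were compared within a gene only. Whether strand was used in counting is not given in the sources used here.

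Groups followed from Ddc among libraries labelled LOC_Delayed. A gene was detected at 1 TPM or more and compared when detected in 6 or more of 28 LOCs. Differences of mean log2(TPM + 1) of 1 or more, and of shares of 40 percentage points or more, were counted. No test was possible, because no source ties neurons to animals and cells are not replicates. The text names the 12 genes of largest share difference and the 8 of largest mean difference in each direction, and members of 36 gene lists. Other genes it names were picked after their values were seen. The members, lists and rules were chosen with earlier results of these data known. Alternatives changed the pseudocount, the filter, the threshold of Ddc, the scaling and the neurons. Scripts were tested on simulated data. Tables were handled with pandas 2.3.3 and NumPy 2.4.6 under Python 3.11.15, intervals came from SciPy 1.17.1, and plots were drawn with matplotlib 3.10.9. Some genes of the lists are not reported here.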

Additional observations from a re-analysis of the deposited data

Results flagged for a closer look

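Among the 9 Ddc-positive LOCs, cell_79 stood apart from the others in capacitance, at 0.158 nF, and in AP half-width, at 3.37 ms. The gap to the next neuron was 0.613 and 0.719 of the range of the group. Of 19 sets of values examined this way, chance would mark about 1 in 20. The same neuron had the lowest Ddc of the group (5 TPM), an AP amplitude of 48.4 mV and 8 of 9 microglia markers. Ddc was also detected in 3 of 56 pLSOs, which no comparison used, at 4, 16 and 266 TPM, and in 0 of 10 negative controls.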

How the results depend on the processing

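The counts of genes by mean (999 toward the Ddc-positive and 434 toward the Ddc-negative LOCs) and by share (162 and 24) depended on the setting. Within the shared range of detected genes they were 555 and 850 by mean and 73 and 201 by share. A pseudocount of 0.1 TPM gave 1566 and 752 by mean, and one of 10 TPM gave 410 and 192. Counting genes as detected at 10 TPM gave 100 toward the Ddc-positive LOCs by share, and median numbers of detected genes of 1557 and 1382. Subtraction of the median difference, chosen after seeing the data, gave 60 and 65 by share. Cell numbers from 66 on, also chosen afterward, gave 44 toward the Ddc-negative LOCs by share. With each of the 28 LOCs left out in turn, also added afterward, the counts ranged from 902 to 1094 and from 402 to 535 by mean, and from 121 to 198 and from 12 to 44 by share. The last count was 44 without cell_73, 43 without cell_82, and 12 to 15 without cell_57, cell_62, cell_68, cell_69, cell_74, cell_75, cell_76 or cell_84. The Th share stayed between 25 and 37.5% and between 16.7 and 22.2%. The cause of these changes was not tested, beyond the lower number of neurons. The 35 genes named by size of difference kept their direction in all alternatives run, but not always their size. They were taken for the largest differences in these same neurons, so the kept direction tests nothing. With detection at 10 TPM, the share difference was 5.85 points for Smim1, 17.5 for Srsf3, 22.2 for Anp32e and 28.1 for Suco and Rab2b, and that of Mcts1 fell under 40 points in 23 of 37 alternatives. The differences of medians of AP latency, amplitude, half-width and threshold and of sEPSC amplitude and decay changed sign in at least 1 of 7 alternatives. No paired analysis was possible because the cell numbers are unique to each neuron and no test was made. Depth is unknown, so a gene listed at 0 may have been missed.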
